A study of Rattus norvegicus with 9 samples.

Results

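The genes described here are the transcriptional coactivators YAP (Yap1) and TAZ (Wwtr1), their DNA-binding partner Tead1, and 7 genes known as targets or partners of the pathway. These 7 are Ctgf, Cyr61, Ankrd1, Axl, Amotl2, Lats2 and Ajuba. They were chosen by name, with earlier results of these data known, and all 10 had a row among the 40154 gene rows of each library. Ctgf and Cyr61 are the older symbols of Ccn2 and Ccn1. RNA was sequenced from whole livers of wild type Sprague-Dawley rats, all 5 months old per the labels, in 3 groups of 3 libraries. Normal rats had been given no carbon tetrachloride (CCl4), which injures the liver until it scars, and no injection. Cirrhotic rats had been injected with phosphate-buffered saline (the PBS group) or with liver progenitor-like cells derived from rat hepatocytes (the HepLPC group). Because the normal rats differ from the PBS rats in both injury and injection, these cannot be told apart. Nothing in the labels says whether libraries 1 to 3 of a group come from different animals, and the spread behind the p-values may therefore be technical.

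YAP and TAZ are the effectors of the Hippo pathway. In this pathway the kinases MST1 and MST2 activate LATS1 and LATS2, which phosphorylate YAP and TAZ and keep them in the cytoplasm. When the kinases are less active, the coactivators enter the nucleus, bind TEAD factors and raise genes such as Ctgf, Cyr61 and Ankrd1. Several targets, among them Lats2 and Amotl2, encode inhibitors of YAP and so form negative feedback loops. In the liver the pathway is known for its part in organ size, in bile duct cell fate and in the activation of hepatic stellate cells, the main source of scar matrix. The location of the YAP protein, on which its activity largely depends, is not measured by RNA.

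TEAD factors recognise the letters GGAATG, read as CATTCC on the opposite strand. Both were searched in the 250 bases before the annotated start of each member, in RefSeq promoter sequences of the rat build GRCr8. The table held 7 of the 10 members, and Tead1, Ankrd1 and Lats2 had no entry. Of the 7, 5 held at least 1 match, against 12.1% of 33469 promoters of the same length. The Ctgf window held 3 matches, beginning 166, 101 and 92 bases before the start, and 0.0807% of promoters (27 of 33469) held 3 or more. Cyr61 held 1 match, beginning 113 bases before the start, and no match was found in the windows of Wwtr1 and Axl. The AP-1 motif TGANTCA, searched on both strands, was in none of the 7 windows (a count of 0) and in 6.34% of promoters. A match describes the letters of the window and is not a measured binding site. The 2 windows below belong to the members that were called in the tests that follow, and capitals mark the TEAD motif, 5′ to 3′ on the minus strand of chr1:22624615-22624864 and chr2:237225690-237225939.
Ctgf: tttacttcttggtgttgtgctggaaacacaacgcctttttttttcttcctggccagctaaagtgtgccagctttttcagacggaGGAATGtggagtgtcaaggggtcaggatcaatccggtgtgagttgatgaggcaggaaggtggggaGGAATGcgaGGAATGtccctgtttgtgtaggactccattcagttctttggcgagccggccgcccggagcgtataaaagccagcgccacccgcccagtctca
Cyr61: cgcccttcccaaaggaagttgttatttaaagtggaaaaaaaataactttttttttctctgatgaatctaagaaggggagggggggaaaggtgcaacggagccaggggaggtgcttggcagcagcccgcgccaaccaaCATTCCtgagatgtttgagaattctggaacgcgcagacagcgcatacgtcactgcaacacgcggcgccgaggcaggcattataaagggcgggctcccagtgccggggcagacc

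The 3 other matches are shown with the 12 bases on either side, again with the motif in capitals. They lie on the minus strand of chr8:13451536-13451565 for Yap1, the plus strand of chr8:112182538-112182567 for Amotl2 and the minus strand of chr15:32000261-32000290 for Ajuba. They begin 116, 76 and 236 bases before the start.
Yap1: agggagtctgcaGGAATGtaacgacgcgca
Amotl2: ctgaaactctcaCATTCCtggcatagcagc
Ajuba: tgcccctccgcaCATTCCaactgtaaacaa

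Depth ranged from 17.4 to 21.8 M (megareads) per library, worked out from the deposited RPKM, which are reads scaled by gene length in kilobases and by library size. Between libraries the reads of a member ran from 10 for Ankrd1 to 1526 for Yap1, and no tested member had fewer than 46 in any library. Changes are differences of mean log2(RPKM + 1) with their standard error (SE), and adjusted p comes from limma with Benjamini-Hochberg adjustment over 11124 tested genes. Genes that reached 1 RPKM in 3 libraries or more were tested, and a gene was called at an adjusted p under 0.05. Of the 10 members 9 passed this filter, each with at least 1 RPKM in all 9 libraries, so none was let in by its higher group alone. Ankrd1 did not pass. PBS replicate 1 and HepLPC replicate 2 stood apart from the other libraries. In both, values fell relative to the group mean as gene length rose (Spearman correlation of deviation and length across genes -0.56 and -0.53, between -0.16 and 0.42 in the others). The results of the members and of most gene lists below are given with and without these 2 libraries.

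Yap1 was the most abundant member per length, at a mean of 12.6 RPKM over the 9 libraries, above 71.5% of tested genes. It ranked first of the 10 in 8 libraries. In PBS replicate 1 Ctgf ranked above it. Next came Cyr61 (6.65 RPKM), Axl (6.47), Amotl2 (5.98), Ctgf (5.71), Ajuba (4.36), Lats2 (3.29), Wwtr1 (3.09) and Tead1 (2.49). The ranges of neighbours in this order overlapped over the 9 libraries in every case. Ankrd1, at 0.837 RPKM, ranked last in all 9. Yap1 exceeded its paralog Wwtr1 between 3.29 and 6.0 times per library, and these ranges overlapped between the groups.

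**Figure D1:**
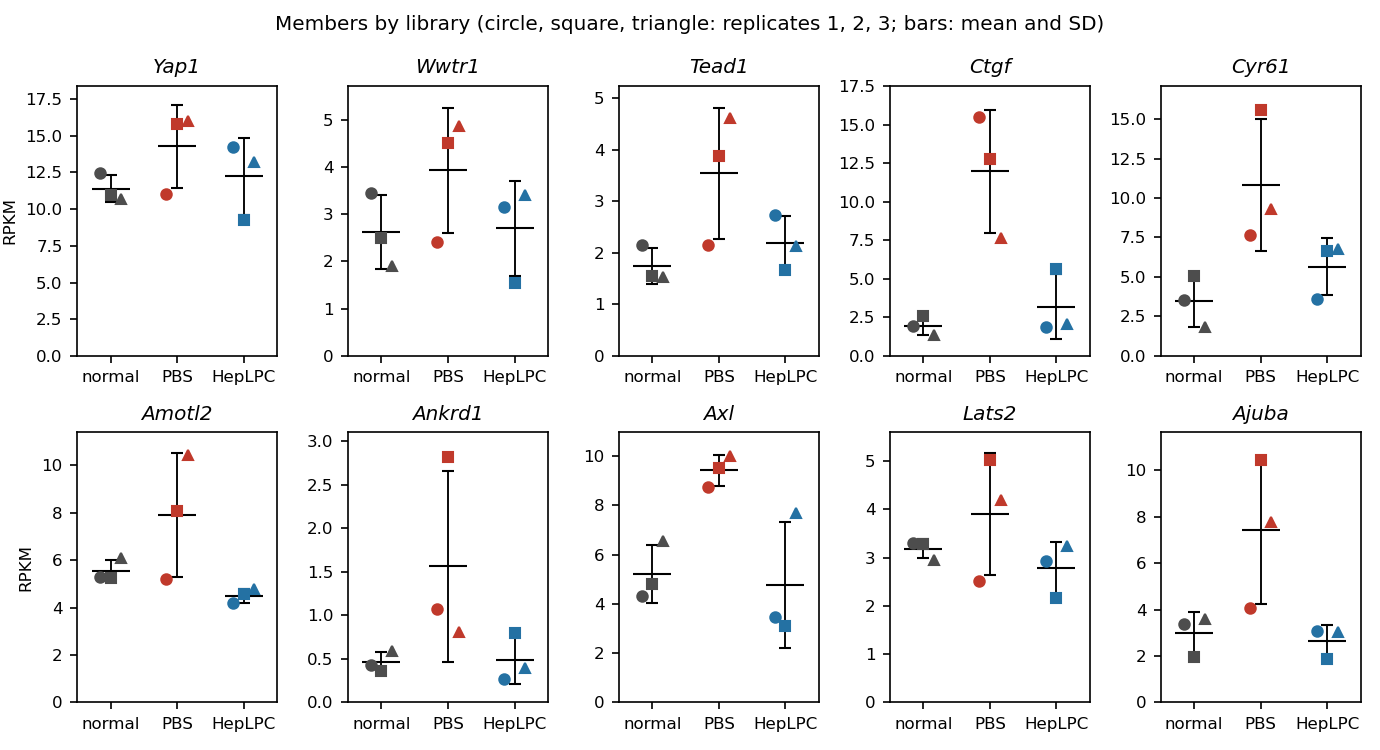
RPKM of the 10 members in each library, by group, with the mean and SD of 3 libraries as bars. Each panel has its own linear axis from 0. Ctgf in the PBS libraries lies between 7.67 and 15.5 RPKM, above every normal and HepLPC library, while Yap1 overlaps in all groups.

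In PBS livers the RNA of Ctgf and Cyr61, which encode 2 secreted matricellular proteins, was higher than in normal livers. After HepLPC injection Ctgf RNA was lower than in PBS livers. Ctgf, a CCN protein of the extracellular matrix linked to fibrosis, was at 1.93, 2.59 and 1.36 RPKM in the normal libraries. It was at 15.5, 12.8 and 7.67 RPKM in the PBS libraries and at 1.91, 5.62 and 2.07 RPKM in the HepLPC libraries. Every PBS library was higher than every other library, and the normal and HepLPC libraries overlapped. In whole tissue, more cells of a type and more RNA per cell cannot be told apart. The PBS mean of 11.97 ± 3.97 RPKM (SD, n = 3, as throughout) was 6.11 times the normal mean of 1.96 ± 0.619. Ctgf rose by 2.10 on the log2 scale (SE 0.34, limma adjusted p = 0.00484), a call kept in all 16 alternative analyses (adjusted p from 0.00124 to 0.0254). From PBS to HepLPC livers Ctgf fell by 1.69 (SE 0.34, adjusted p = 0.0339) to 3.20 ± 2.10 RPKM. This second call was lost in 11 of the 16 alternatives (adjusted p from 0.0117 to 0.119), among them the removal of any 1 library except HepLPC replicate 2. Without that library the fall was 2.07 (adjusted p = 0.0117). After rescaling by the median of ratios the difference was -1.48 (adjusted p = 0.11).

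Cyr61, the related CCN protein that binds integrins, was at 3.51, 5.04 and 1.83 RPKM in normal libraries. The PBS libraries had 7.66, 15.6 and 9.31 RPKM, and the HepLPC libraries 3.57, 6.61 and 6.75. As for Ctgf, all PBS libraries lay above all others. Cyr61 rose by 1.42 from normal to PBS (SE 0.34, adjusted p = 0.026). That call was lost in 6 of 16 alternatives, including the removal of normal replicate 1 or 3 and of PBS replicate 2 or 3 (adjusted p from 0.0204 to 0.0881 over all 16). Between HepLPC and PBS livers Cyr61 differed by -0.82 (95% interval -1.57 to -0.07, adjusted p = 0.268). The ratio of Ctgf to Cyr61 in RPKM was 0.514 to 0.740 in normal, 0.819 to 2.02 in PBS and 0.306 to 0.849 in HepLPC libraries. The groups thus overlapped between HepLPC and the other groups, and the highest ratio was in PBS replicate 1.

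The third classical target, Ankrd1, encodes a nuclear and sarcomeric ankyrin repeat protein. It was below the filter, at 0.424, 0.364 and 0.591 RPKM in normal, 1.07, 2.82 and 0.803 in PBS and 0.274, 0.792 and 0.395 in HepLPC libraries. Its reads numbered between 10 and 110 per library. All PBS libraries were above all others, by a small margin over HepLPC replicate 2. In the fit without a filter Ankrd1 differed by 0.74 for PBS against normal (SE 0.27, adjusted p = 0.163) and by -0.72 for HepLPC against PBS (adjusted p = 0.272).

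Neither coactivator, nor Tead1, was called in any comparison over the 9 libraries. Yap1 was at 12.4, 11.0 and 10.7 RPKM in normal, 11.0, 15.8 and 16.02 in PBS and 14.3, 9.27 and 13.2 in HepLPC libraries. The groups overlapped in every comparison. The PBS against normal difference was 0.29 (95% interval -0.14 to 0.71, adjusted p = 0.363) and the HepLPC against PBS difference was -0.21 (-0.63 to 0.21, adjusted p = 0.614). The latter was 0.008 after rescaling by the median of ratios. Wwtr1 was at 3.46, 2.51 and 1.91 RPKM in normal, 2.41, 4.51 and 4.87 in PBS and 3.16, 1.55 and 3.40 in HepLPC libraries. Its lowest PBS library was replicate 1 and its lowest HepLPC library replicate 2, and its differences were 0.43 (-0.20 to 1.05, adjusted p = 0.36) and -0.41 (-1.04 to 0.21, adjusted p = 0.506). Tead1, the DNA-binding partner, was at 2.15, 1.56 and 1.53 RPKM in normal, 2.14, 3.88 and 4.61 in PBS and 2.73, 1.67 and 2.14 in HepLPC libraries. PBS replicate 1 lay within the normal range and the other PBS libraries above it, and the differences were 0.69 (SE 0.22, adjusted p = 0.0795) and -0.49 (adjusted p = 0.328).

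Among the feedback genes and partners, Ajuba had the largest difference. Ajuba encodes a LIM protein that binds LATS kinases and limits their action on YAP. It was at 3.40, 1.94 and 3.62 RPKM in normal, 4.08, 10.5 and 7.80 in PBS and 3.07, 1.87 and 3.06 in HepLPC libraries. Every PBS library was above all others, although replicate 1 only slightly. The differences were 1.03 (SE 0.30, adjusted p = 0.057) for PBS against normal and -1.14 (adjusted p = 0.0809) for HepLPC against PBS, both short of the threshold. Axl, a receptor tyrosine kinase for Gas6, was at 4.32, 4.80 and 6.57 RPKM in normal and 8.77, 9.51 and 10 in PBS libraries. The HepLPC libraries had 3.45, 3.12 and 7.71 RPKM. The PBS libraries lay above all others, with HepLPC replicate 3 nearest to them, and the differences were 0.76 and -0.94 (adjusted p = 0.101 for each).

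Amotl2, an angiomotin that binds YAP and holds it at junctions and in the cytoplasm, was at 5.27, 5.26 and 6.09 RPKM in normal libraries. It was at 5.20, 8.08 and 10.4 RPKM in PBS and 4.17, 4.56 and 4.77 in HepLPC libraries. The HepLPC libraries were below both other groups without overlap, with differences of -0.65 from PBS (adjusted p = 0.132) and -0.25 from normal (adjusted p = 0.769). Lats2, the kinase that phosphorylates YAP and TAZ, was at 3.30, 3.29 and 2.96 RPKM in normal, 2.52, 5.01 and 4.18 in PBS and 2.93, 2.17 and 3.23 in HepLPC libraries. These groups overlapped in every comparison. The differences were 0.20 (-0.25 to 0.65, adjusted p = 0.572), which was -0.03 after rescaling by the median of ratios, and -0.35 (adjusted p = 0.436).

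Over the 9 tested members, 2 rose in PBS against normal livers, while 11.3% of all tested genes were called there in either direction. In HepLPC against PBS livers 1 of 9 fell, against 3.07% of genes called. No member was called in HepLPC against normal livers, where 0.0809% of genes were (limma, and 0 members with voom). At an unadjusted p under 0.05 there were 0 of 9 members, beside 1036 of all 11124 tested genes. All 9 differences were above 0 for PBS against normal, with a median of 0.69 against 0.18 for all tested genes. All 9 were below 0 for HepLPC against PBS, with a median of -0.65 against -0.15. After rescaling, 8 of 9 kept each sign, since Lats2 and Yap1 respectively changed it. The medians of the members were then 0.49 and -0.45, against -0.05 and 0.05 for all genes. Both comparisons share the PBS libraries, so a high PBS value moves them in opposite directions.

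Of the 9 tested members, 4 lay above the normal libraries in all PBS libraries (Ctgf, Cyr61, Axl and Ajuba). The same was true of 32.7% of tested genes. In HepLPC livers 5 of the 9 lay below all PBS libraries (those 4 and Amotl2), as did 15.6% of genes, and Amotl2 alone of the 9 lay below all normal libraries, as did 3.51%. Ankrd1, which was not tested, was also higher in all PBS libraries than in any normal or HepLPC library. HepLPC and normal livers differed by between -0.25 for Amotl2 and 0.60 for Cyr61 (95% interval -0.15 to 1.36), with adjusted p from 0.652 to 0.994.

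**Figure D2:**
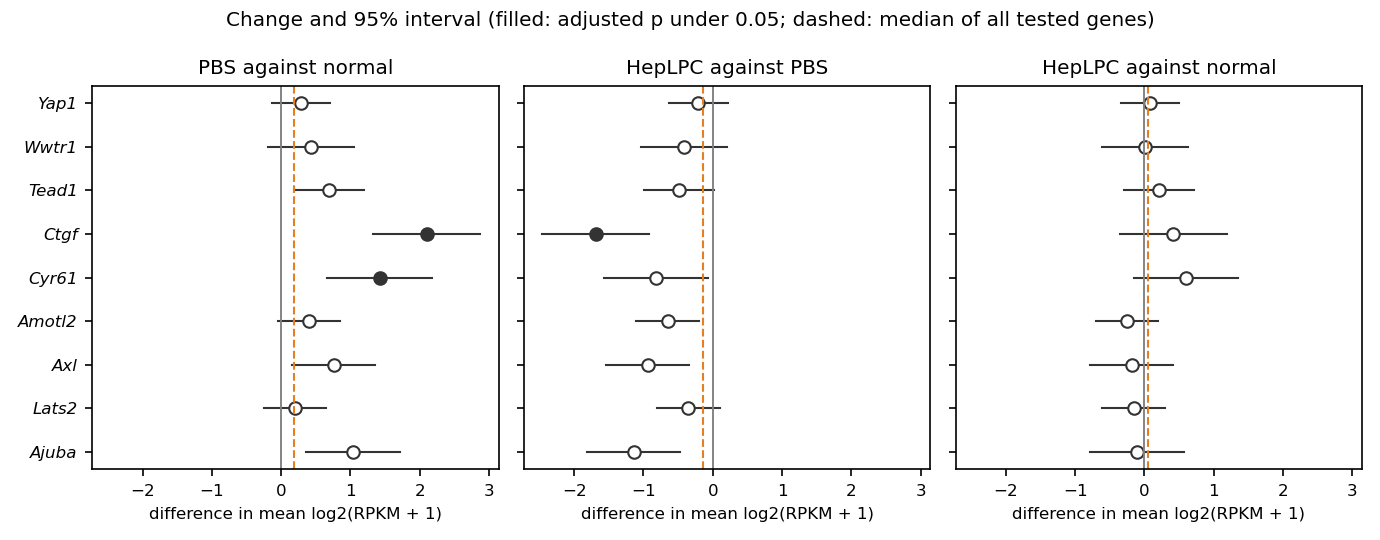
Difference in mean log2(RPKM + 1) of the 9 tested members in the 3 comparisons, with 95% intervals from limma. Filled points passed an adjusted p of 0.05, which only Ctgf and Cyr61 did, and the dashed line is the median of all 11124 tested genes. Rescaling by the median of ratios put Lats2 below 0 on the left and Yap1 above 0 in the middle.

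In PBS replicate 1, 9 of 10 members lay below the mean of their group, with a median deviation of -0.42 on the log2 scale. In PBS replicate 2 none did (0 of 10), and in the 3 normal libraries between 3 and 7 did. Ajuba and Tead1 deviated by -0.66 and -0.49 in PBS replicate 1, while Ctgf was the exception there at 0.40. In HepLPC replicate 2, 6 of 10 members were below the group mean, among them Wwtr1 (-0.50), Axl (-0.40) and Yap1 (-0.35). Ctgf again lay on the other side, at 0.77. Ctgf was thus highest of its group in both libraries. Whether the property that set these libraries apart changed the members' values was not tested.

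**Figure D3:**
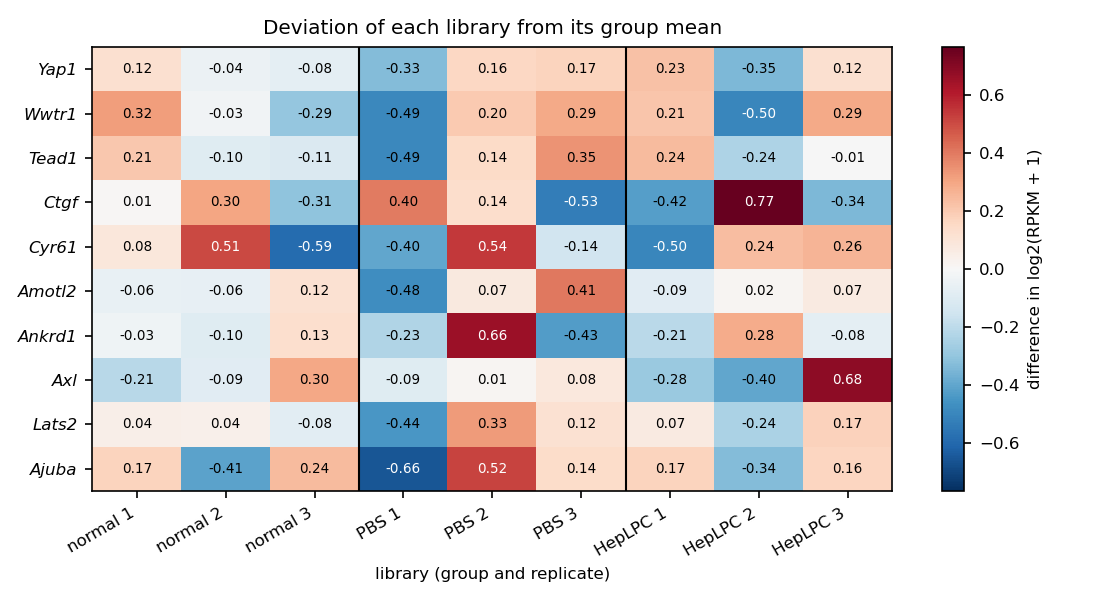
Deviation of each member from its group mean on log2(RPKM + 1), by library. Blue is below and red above the mean. The column of PBS replicate 1 is blue for 9 of 10 members, and Ctgf is red there and in HepLPC replicate 2.

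Without these 2 libraries, 8 of 9 tested members rose in PBS against normal livers, and the share of all genes called was also larger, at 27.3% of 10822 genes. Yap1 was then higher by 0.45 (SE 0.10, limma adjusted p = 0.0191), Wwtr1 by 0.67 (0.0308 adjusted), Tead1 by 0.94 (0.00721) and Lats2 by 0.42 (0.0311). Ajuba rose by 1.36 (0.00721) and Amotl2 by 0.64 (0.0162), and Axl alone did not pass (0.80, adjusted p = 0.065). Removing only PBS replicate 1 gave 5 called members, where 791 of all genes were called higher and 86 lower. For HepLPC against PBS, 3 members fell without the 2 libraries, while 2.27% of genes were called. They were Ctgf (-1.87, adjusted p = 0.0219), Amotl2 (-0.90, adjusted p = 0.03) and Ajuba (-1.30, adjusted p = 0.0402). Yap1 differed by -0.20 (adjusted p = 0.306) and Wwtr1 by -0.41 (adjusted p = 0.251) in that comparison. These fits have 2 libraries left in the PBS and HepLPC groups.

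**Figure D4:**
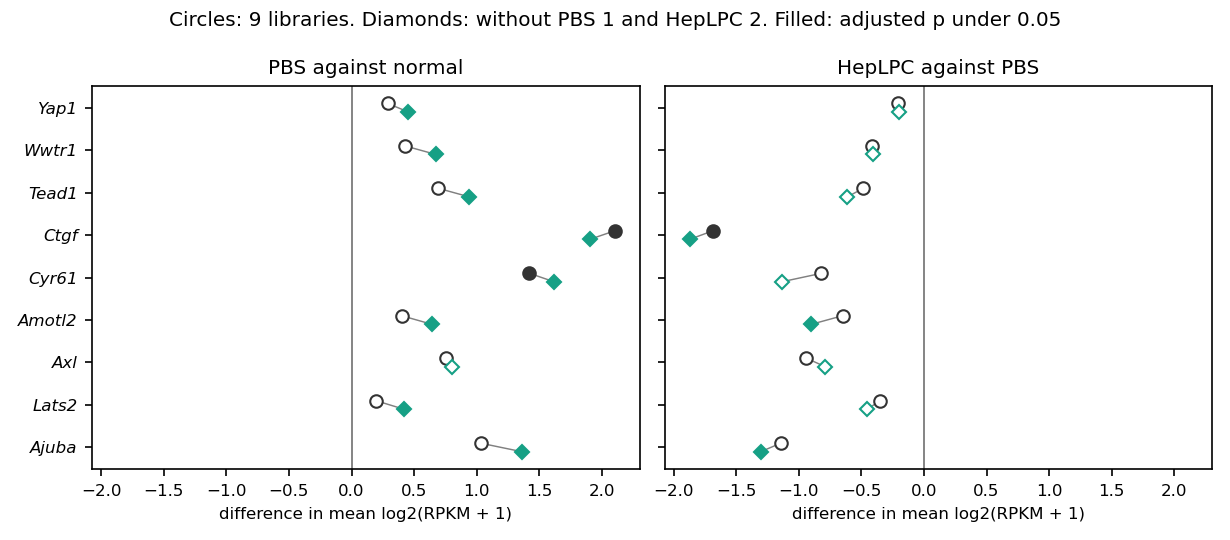
Differences of the 9 tested members in all 9 libraries (circles) and without PBS replicate 1 and HepLPC replicate 2 (diamonds), filled where the adjusted p was under 0.05. For PBS against normal 2 circles and 8 diamonds are filled, and for HepLPC against PBS 1 circle and 3 diamonds.

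The remaining TEAD factors and the VGLL cofactors, which compete with YAP for TEAD, were mostly low. Tead3 had the highest level of the other TEAD genes, at 1.62 ± 0.124 RPKM in normal, 2.08 ± 0.625 in PBS and 1.30 ± 0.333 in HepLPC livers (adjusted p = 0.486 and 0.298 for the first 2 comparisons). Tead2 was at 0.698 ± 0.113, 1.05 ± 0.0884 and 0.668 ± 0.246 RPKM and Tead4 at 0.146 ± 0.0103, 0.474 ± 0.0218 and 0.148 ± 0.0516 RPKM. Both were below the filter. Of the 8 genes of this list 3 were tested (Tead1, Tead3 and Vgll4), and 0 were called in any comparison by limma or voom. The shares of all tested genes called were 11.3% and 3.07% in the first 2 comparisons. At an unadjusted p under 0.05 there were 1 and 2 there, beside 3042 and 1792 of all 11124 tested genes. Vgll4 was at 3.18 ± 0.0817, 3.42 ± 1.29 and 2.10 ± 0.278 RPKM.

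Of the Hippo kinases, scaffolds and upstream regulators, 1 of 19 tested genes rose in PBS livers, where 11.3% of all tested genes were called. In HepLPC against PBS 0 were called (0 with voom), beside 3.07% of all tested genes. At an unadjusted p under 0.05 there were 6 in that comparison, beside 1792 of all 11124 tested genes. The list medians of 0.20 and -0.35 compare with 0.18 and -0.15 for all genes. The gene that rose was Frmd6, a FERM protein upstream of the kinases, at 0.980 ± 0.192 RPKM in normal and 2.30 ± 0.518 in PBS livers (0.73, SE 0.17, adjusted p = 0.0255), a call lost in 5 of 16 alternatives. It was lost without normal replicate 2 or 3 and without PBS replicate 2 or 3. Lats1 was at 3.00 ± 0.229, 3.54 ± 1.42 and 3.06 ± 1.08 RPKM in normal, PBS and HepLPC livers (0.13 and -0.14, adjusted p = 0.8 and 0.805), and Lats2 was between 0.764 and 1.32 times Lats1 in every library. Without PBS replicate 1 and HepLPC replicate 2, 11 of these 19 genes rose in PBS livers, where 27.3% of all genes were called, among them Nf2, which encodes the tumour suppressor Merlin, Sav1, a scaffold of the MST kinases, Lats1 and Lats2.

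Of the genes for proteins that hold YAP and TAZ outside the nucleus or bind LATS, 1 of 13 tested was higher in PBS livers, beside 11.3% of all tested genes called. In HepLPC against PBS 0 were called (0 with voom), beside 3.07% of all tested genes. At an unadjusted p under 0.05 there were 5 in that comparison, beside 1792 of all 11124 tested genes. Amotl1, the angiomotin paralog, rose by 0.55 (SE 0.15, adjusted p = 0.0472), with 0.930 ± 0.168 RPKM in normal, 1.83 ± 0.393 in PBS and 1.07 ± 0.227 RPKM in HepLPC livers. That call was lost in 11 of 16 alternatives, including the removal of any normal library, of PBS replicate 2 or 3, or of HepLPC replicate 1 or 3. Amot was at 0.780 ± 0.120, 1.30 ± 0.436 and 1.09 ± 0.382 RPKM (0.36, adjusted p = 0.255, for PBS against normal). Amotl2 exceeded Amotl1 in each library, by 3.64 to 6.89 times. Without the 2 libraries 9 of the 13 genes rose in PBS livers, again beside 27.3% of all genes called, and Amotl2 and Ajuba were among those that fell in HepLPC against PBS.

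A compact list of 22 published YAP and TAZ targets, chosen with earlier results of these data known, includes 6 of the members and had 15 tested genes. In PBS livers 7 of 15 rose, Ctgf, Cyr61, F3, Igfbp3, Tgfb2, Ccdc80 and Crim1, with a list median of 0.58, while 11.3% of all tested genes were called and their median was 0.18. In HepLPC against PBS livers 5 of 15 fell, Ctgf, F3, Tgfb2, Gadd45a and Crim1, with a median of -0.65, while 3.07% of all genes were called and their median was -0.15. After rescaling 4 rose and 3 fell, where 512 of all genes were called higher and 154 lower in the same comparisons. Without PBS replicate 1 and HepLPC replicate 2, 7 of 13 rose and 3 of 13 fell, beside 27.3% and 2.27% of all genes called. In that fit F3 and Tgfb2 were not tested, and Amotl2 and Lats2 were among those that rose. F3, the tissue factor that starts coagulation, was at 0.425, 0.441 and 0.474 RPKM in normal, 3.04, 2.22 and 4.18 in PBS and 0.410, 0.175 and 0.812 in HepLPC libraries. It rose by 1.49 (SE 0.20, adjusted p = 0.00195) and fell by 1.50 (SE 0.20, adjusted p = 0.00657), and both calls held in the 12 alternatives in which it was fitted. Tgfb2, a ligand of the transforming growth factor beta family, rose by 1.05 (adjusted p = 0.00232) and fell by 0.93 (adjusted p = 0.0134), the latter call lost without HepLPC replicate 1 and with only the 2 groups in the fit (adjusted p up to 0.0565). F3 and Tgfb2 reached 1 RPKM only in PBS libraries, so they were tested because they were high there. Igfbp3, a carrier of insulin-like growth factors, was the most abundant of the called targets, at 27.7 ± 7.49, 68.9 ± 13.4 and 43.4 ± 6.71 RPKM (1.30 and -0.65, adjusted p = 0.00525 and 0.161). Gadd45a, a stress and growth arrest gene, was at 15.7 ± 3.55, 16.4 ± 1.59 and 8.64 ± 0.180 RPKM and fell in HepLPC against PBS (-0.85, SE 0.17, adjusted p = 0.0287). Its HepLPC libraries also lay below all normal libraries (-0.77, SE 0.17, adjusted p = 0.195). The rises of Ccdc80 (0.63) and Crim1 (0.58) were lost in 4 and 7 of 16 alternatives, both without normal replicate 1 or 2 and without PBS replicate 3, and the fall of Crim1 (-0.73) in 6 of 16, among them without PBS replicate 2 or 3 and without HepLPC replicate 1 or 2. The Gadd45a call was lost in 8 of 16 alternatives, including without normal replicate 3, PBS replicate 2 or 3 or any HepLPC library.

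The CCN family, of which Ctgf and Cyr61 are members, had 3 tested genes. All 3 rose in PBS livers, where 11.3% of all tested genes were called, but Ctgf and Cyr61 are the members already described. The third was Wisp2, a CCN protein without the C-terminal domain of the others. Wisp2 was at 0.0289, 0.185 and 0.0269 RPKM in normal, 1.10, 1.17 and 2.60 in PBS and 0.269, 0.179 and 0.331 in HepLPC libraries (1.24 and -1.02, adjusted p = 0.00484 and 0.0306). It reached 1 RPKM in PBS libraries only, so it was tested because it was high there. The second call was lost in 10 of 12 alternatives, with any normal or HepLPC library left out among them. Nov, below the filter, was at 0.107 ± 0.0645, 0.646 ± 0.387 and 0.237 ± 0.125 RPKM.

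Genes of the liver epithelium that are linked to YAP, a list chosen with results of these samples known, had 12 tested members. In PBS livers 8 rose, beside 11.3% of all genes called, led by Spp1 (osteopontin, 4.21, SE 0.58), Krt19 (a bile duct keratin, 3.06, SE 0.47) and Sox4 (a progenitor transcription factor, 2.06, SE 0.14). In HepLPC against PBS livers 6 fell, beside 3.07% of all genes called, led by Spp1 (-2.92, adjusted p = 0.0306), Krt19 (-2.32, adjusted p = 0.0346) and Cd44 (a hyaluronan receptor, -1.65, adjusted p = 0.0382). These 3 falls were lost in 10 of 16, 11 of 16 and 10 of 12 alternatives, each without HepLPC replicate 1 or 2 among others, whereas the fall of Sox4 by 1.49 was kept in all 16 (adjusted p from 0.00188 to 0.0224). Sox9 and Cd44 reached 1 RPKM in PBS libraries only. Sox9, Spp1, Krt19 and Epcam, all called in both comparisons, are also among the bile duct markers described below, so the 2 lists are not separate results. Without PBS replicate 1 and HepLPC replicate 2 the counts were 6 and 4 of 10, beside 27.3% and 2.27% of all genes called.

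**Figure D5:**
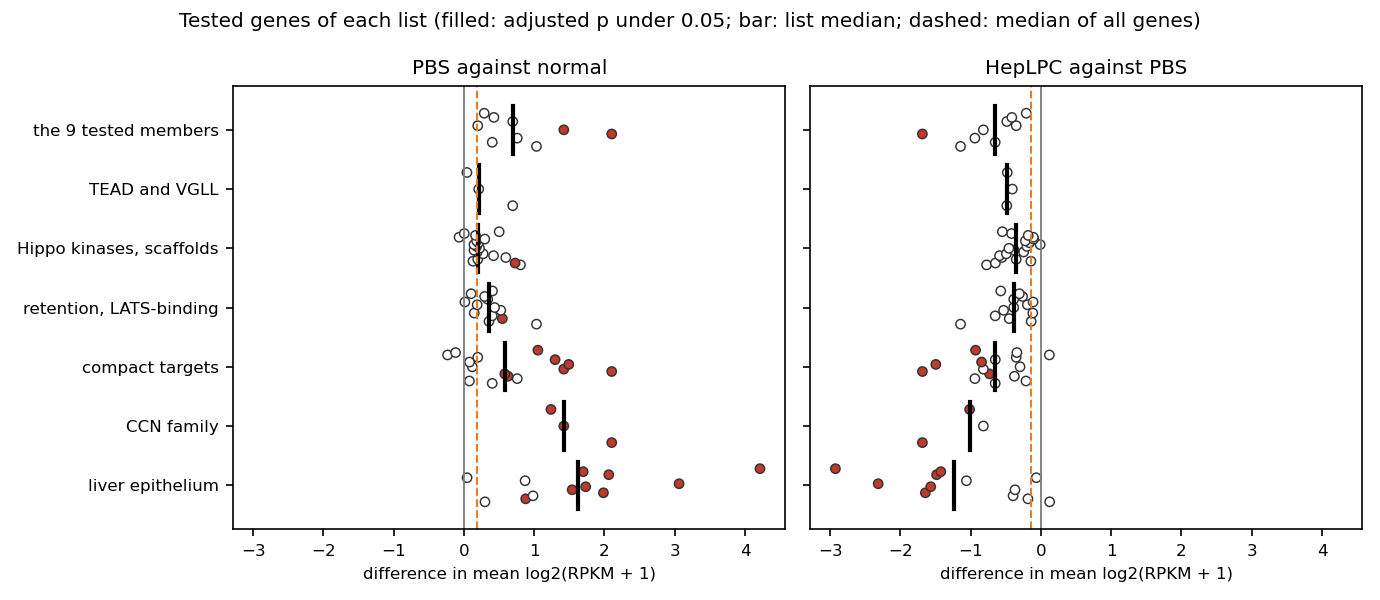
Difference in mean log2(RPKM + 1) of every tested gene in the members and 6 related lists, for PBS against normal and HepLPC against PBS. Filled points passed an adjusted p of 0.05, black bars are list medians and the dashed line is the median of all genes. The medians for PBS against normal run from 0.20 in the Hippo kinases and scaffolds to 1.62 in the genes of the liver epithelium. Rescaling by the median of ratios moved the Hippo list to -0.03 and the median of all genes to -0.05.

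Markers of some liver cell types differed between the same groups. Which cells express the members was not measured. The summed RPKM of 10 bile duct markers was 8.57 to 10.2 in normal, 46.8 to 159 in PBS and 9.98 to 19.7 in HepLPC libraries, and 8 of 8 tested markers rose and fell, of which 5 reached 1 RPKM in PBS libraries only. The fall was called for 4 of the 8 with voom and for 5 after rescaling, where 271 and 154 of all genes were called lower. Without PBS replicate 1 and HepLPC replicate 2, 3 of 3 tested bile duct markers rose and fell, beside 27.3% and 2.27% of all genes called. For 12 stellate cell and myofibroblast markers the sum was 36.5 to 39.1, 103 to 166 and 64.2 to 80.8 RPKM. Of these, 8 of 11 tested were higher in PBS and 3 of 11 lower in HepLPC livers. Both counts include Loxl1, which reached 1 RPKM in PBS libraries only. The fall was called for 2 of 11 with voom and after rescaling. Without PBS replicate 1 and HepLPC replicate 2, 9 of 10 rose and 1 of 10 fell, beside 27.3% and 2.27% of all genes called. The 9 macrophage markers summed to 125 to 159, 256 to 362 and 140 to 200 RPKM, with 3 of 9 higher in PBS and 3 of 9 lower in HepLPC livers. Both counts include Trem2, which reached 1 RPKM in PBS libraries only. Without PBS replicate 1 and HepLPC replicate 2, 2 of 8 macrophage markers rose and 2 of 8 fell. The 6 smooth muscle and mesothelial markers summed to 0.546 to 1.40, 5.32 to 13.4 and 0.8004 to 2.37 RPKM, with Msln the only one tested. Endothelial markers summed to 81.7 to 95.2, 96.9 to 114 and 83.8 to 97.6 RPKM, with 2 of 10 higher and 1 lower. After rescaling these counts were 1 and 0, where 512 of all genes were called higher and 154 lower. Without PBS replicate 1 and HepLPC replicate 2 these endothelial counts were 5 and 0, where 27.3% and 2.27% of all genes were called. Of 10 hepatocyte markers and of 3 tested lymphocyte markers none was called in either comparison over the 9 libraries (0 with voom). At an unadjusted p under 0.05 there was 1 for each list and comparison, beside 3042 and 1792 of all 11124 tested genes. Without PBS replicate 1 and HepLPC replicate 2, the hepatocyte marker Ttr was called lower and the lymphocyte marker Cd4 higher in PBS against normal livers. No marker of these lists was at 0 in every library, while Postn of the myofibroblast list was among those at 0 in all normal libraries. The part of these cells in the members' values was not tested.

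By the mean absolute difference of centred log2 values over the 9 libraries, the genes nearest to Ctgf were Tagln (0.30), Prnp (0.32) and Atpif1 (0.32). Tagln encodes an actin-binding protein of smooth muscle and myofibroblasts and was at 4.03 ± 1.60, 12.4 ± 2.81 and 5.85 ± 2.32 RPKM in normal, PBS and HepLPC livers. Prnp, the prion protein, was at 2.03 ± 0.669, 9.72 ± 1.48 and 3.07 ± 2.22 RPKM. Those nearest to Cyr61 were Ckb (0.23), Cyp3a62 (0.24) and Tagln (0.24). Ckb, the brain-type creatine kinase, was at 6.15 ± 0.216, 18.8 ± 5.51 and 8.38 ± 1.30 RPKM. These likenesses describe levels over 9 libraries in 3 groups.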

How the data were processed

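The members and gene lists were chosen with earlier results of these data known. Values are RPKM, as the authors deposited them per the file headers, 1 file per library. The submitters' processing notes name HISAT2, StringTie and the build hg19, although the rows carry rat symbols, so no coordinates were taken from the files. How reads that fit several paralogs were assigned is not stated there. Low values were whole multiples of 1 read: whole reads were recovered within 0.01 read for 20958 of 20959 genes above 0 in 3 or more libraries. All replicate pairs differed by more than sampling noise.

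All 9 libraries entered 1 limma (version 3.58.1, R 4.3.3) model on log2(RPKM + 1) with a mean-variance trend, tested on simulated data first. It had 6 residual degrees of freedom and 11124 genes that reached 1 RPKM in 3 libraries or more. Tests were 2-sided, and p was adjusted by Benjamini-Hochberg. These log2 differences understate the change of low genes. The 16 alternatives were a pseudocount of 0.1, no filter, rescaling by the median of ratios, voom on recovered reads, only the 2 groups compared, a replicate block, leaving out each library, and leaving out both that stood apart. Same-numbered libraries deviated with correlations between -0.41 and 0.31, and 3 of 9 pairs exceeded 0.1, so the numbers were not taken to pair them.

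Named genes were the 10 members, up to 3 called genes per list and direction with the largest change, the 3 genes nearest each called member, and the paralogs. Where all called genes of a list are named, those beyond 3 were named after their values were seen. Promoter letters are from the RefSeq table of GRCr8, matched by symbol or synonym. Some list genes are not reported here by name.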

Additional observations from a re-analysis of the deposited data

How the results depend on the processing

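Of 432 member differences under the 16 alternatives, 385 kept their direction and side of the threshold, 17 lost the call, 17 gained one and 13 changed sign, none of them called (0). The cause of these changes was not tested. Sign changes after rescaling by the median of ratios were Lats2 for PBS against normal (-0.029), Yap1 for HepLPC against PBS (0.008) and Wwtr1 for HepLPC against normal (-0.031). For HepLPC against normal, leaving out 1 library gave Wwtr1 values from -0.135 to 0.262 (-0.00042, -0.093 and -0.132 among those that changed sign), Ajuba -0.316 to 0.056 (also 0.009), Axl -0.524 to 0.016 and Yap1 -0.034 to 0.252. Without both libraries that stood apart, Ajuba was at 0.056 and Axl at 0.016.

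Genes called for PBS against normal numbered 1262, of which 1157 were higher. There were 787 after rescaling (512 higher, 65.1% against 91.7%), 2953 without both libraries and 419 to 1797 with 1 left out. For HepLPC against PBS, 341 were called, 177 after rescaling, 88 with only the 2 groups and 39 to 289 with 1 left out. For HepLPC against normal, 9 were called (1036 at an unadjusted p under 0.05), 0 with voom, 0 without a filter, 15 without both libraries and 0 to 17 with 1 left out. Members called for PBS against normal were 2, and 1 without a filter, 1 after rescaling, 8 without both libraries and 1 to 5 with 1 left out. For HepLPC against PBS 1 was called, and 0 without a filter, 0 after rescaling, 0 with only the 2 groups, 3 without both libraries and 0 to 2 with 1 left out. With a replicate block, 787, 198 and 1 genes were called in the 3 comparisons and 2, 1 and 0 members. In 5 of 18 cases a library correlated best with its own number. At depths of 17.4 to 21.8 M reads, Ankrd1 rests on 10 to 110 reads per library.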

Other observations

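Several pathway genes below the filter had PBS values above both other groups, and they are named here after their values were seen. They were picked for high PBS values, so their adjusted p-values add no support. The fit without a filter called 1660 of 25034 genes higher and 127 lower for PBS against normal, and 13 and 418 for HepLPC against PBS. Ptpn14, Nov, Jag1 and Tead2, also below the filter, were called in neither comparison. In the fit without a filter, limma called Tead4, a TEAD factor, higher in PBS livers (0.36, SE 0.04, adjusted p = 0.00388) and lower in HepLPC livers (-0.36, adjusted p = 0.01). Its levels were 0.137 to 0.157 RPKM in normal, 0.451 to 0.494 in PBS and 0.0912 to 0.192 in HepLPC libraries. Vgll3, a TEAD cofactor, was at 0.00876 to 0.0321, 0.274 to 0.380 and 0.0271 to 0.0994 RPKM (0.39 and -0.32, adjusted p = 0.00203 and 0.00924). The target Fjx1, a relative of the Four-jointed kinase of the Fat pathway, was at 0 to 0.0477, 0.347 to 0.674 and 0.0273 to 0.123 RPKM (0.55 and -0.49, adjusted p = 0.00594 and 0.0224). Wtip, an Ajuba family protein, was at 0.285 to 0.435, 0.850 to 0.940 and 0.435 to 0.646 RPKM, and was called in PBS against normal (0.46, adjusted p = 0.0234) but not in HepLPC against PBS (-0.31, adjusted p = 0.142). Rbms3 and Myof, also on the target list, were called in PBS against normal at 0.48 (adjusted p = 0.0165) and 0.68 (adjusted p = 0.0471). Neither was called in HepLPC against PBS (-0.42 and -0.58, limma adjusted p = 0.0576 and 0.143). On log2(RPKM + 1) such low genes give small differences by construction.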
